A study of Mus musculus with 6 samples.

Results

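The PI3K, AKT and mTOR signaling genes of cultured mouse calvarial preosteoblasts were examined in 6 RNA libraries. They were 37 genes, chosen by symbol for their known role in the pathway, covering growth factor receptors, adaptors, PI3K subunits, AKT and its activating kinase, the mTOR complexes and their effectors, AKT substrates and phosphatases. All 37 had a row among the 17001 rows of the table, and 36 passed a filter on low values (1 FPKM or more in 3 or more libraries), which 11590 rows passed. FPKM counts sequenced fragments relative to transcript length and to the size of the library. Preosteoblasts, the precursors of bone-forming osteoblasts, had been digested out of calvaria taken from mice 3 days old. The 3 control libraries were from NELL2 fx/fx cells, whose *Nell2* alleles are floxed. The 3 cKO libraries were from Col1-cre; NELL2 fx/fx cells, which carry the same floxed alleles and also Cre recombinase driven by a fragment of the *Col1a1* promoter, active in cells of the osteoblast lineage. Whether a library held 1 pup or several is not given in the sources used here, so p-values measure the spread between these libraries.

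In this pathway a ligand-bound receptor, or an integrin acting through focal adhesion kinase, recruits PI3K to the membrane, where it makes a phospholipid that binds AKT. PDK1 and mTOR complex 2 then phosphorylate AKT, which restrains GSK3, the FoxO transcription factors and the TSC complex. Release of Rheb from TSC switches on mTOR complex 1, which drives translation through S6 kinases and through the eIF4E-binding proteins. In osteoblasts the pathway carries the anabolic signal of insulin-like growth factors, and the study placed AKT downstream of NELL2, fibronectin and integrin β1. The comparison below asks whether transcripts of the core components differed between the groups. The activity of AKT and mTOR is set by phosphorylation, which FPKM does not measure.

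The targeted gene, *Nell2*, had 3.17, 2.59 and 1.88 FPKM in the 3 control libraries (in the order of their replicate numbers, as below), and 5.64, 1.61 and 5.74 in cKO-labelled replicates 1, 2 and 3. It was therefore not lower in the cKO-labelled libraries (limma log2 fold change 0.48, adjusted p = 0.591), and all directions below are for the libraries as labelled. A gene-level value does not separate the floxed part of *Nell2* from the rest. With qRT-PCR and western blotting, the study reported knockout of NELL2 in calvarial preosteoblasts of the cKO genotype. Whether the cells of these libraries were among those tested is not given in the sources used here. *Ddx3y*, a Y-linked gene, had 17.27 FPKM in control replicate 3 and 17.33 and 15.65 FPKM in cKO replicates 1 and 3, and was at 0.06 or less in the remaining 3 libraries. FPKM sums ranged from 573307 to 606428 per library, and depth is unknown. The osteoblast lineage markers *Col1a1*, *Runx2* and *Sp7* were present in every library, at 8053 to 8578, 11.0 to 14.7 and 10.3 to 17.6 FPKM.

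Levels of the pathway genes differed widely. Within each functional class, neighbours in the order of levels did not overlap over the 6 libraries, except *Pik3r1* and *Pik3r3*, *Mlst8* and *Rptor*, and *Rps6kb1* and *Eif4ebp2*. *Akt1* was the highest, at a mean of 161 FPKM over the 6 libraries, above 95.6% of the tested rows. *Eif4ebp1*, which encodes an eIF4E-binding repressor of cap-dependent translation, followed at 148 FPKM, and *Pdgfrb*, a receptor for platelet-derived growth factor, at 106 FPKM. At the other end, *Pik3cb* had a mean of 1.17 FPKM and *Inpp4b*, a phosphatase for a PI3K product, 0.688 FPKM. *Inpp4b* was the gene that did not pass the filter, with 0.71, 0.46 and 0.85 FPKM in control and 0.69, 0.93 and 0.49 FPKM in the cKO-labelled libraries. The median of the mean level over the 36 genes was 9.26 FPKM, against 11.1 FPKM over all tested rows. Their values were also steady, with a median coefficient of variation over the 6 libraries of 7.23%, against 8.80% over all tested rows. *Irs1* varied least, at 2.60%, and *Met* most among the 36, at 18.8%.

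**Figure D1:**
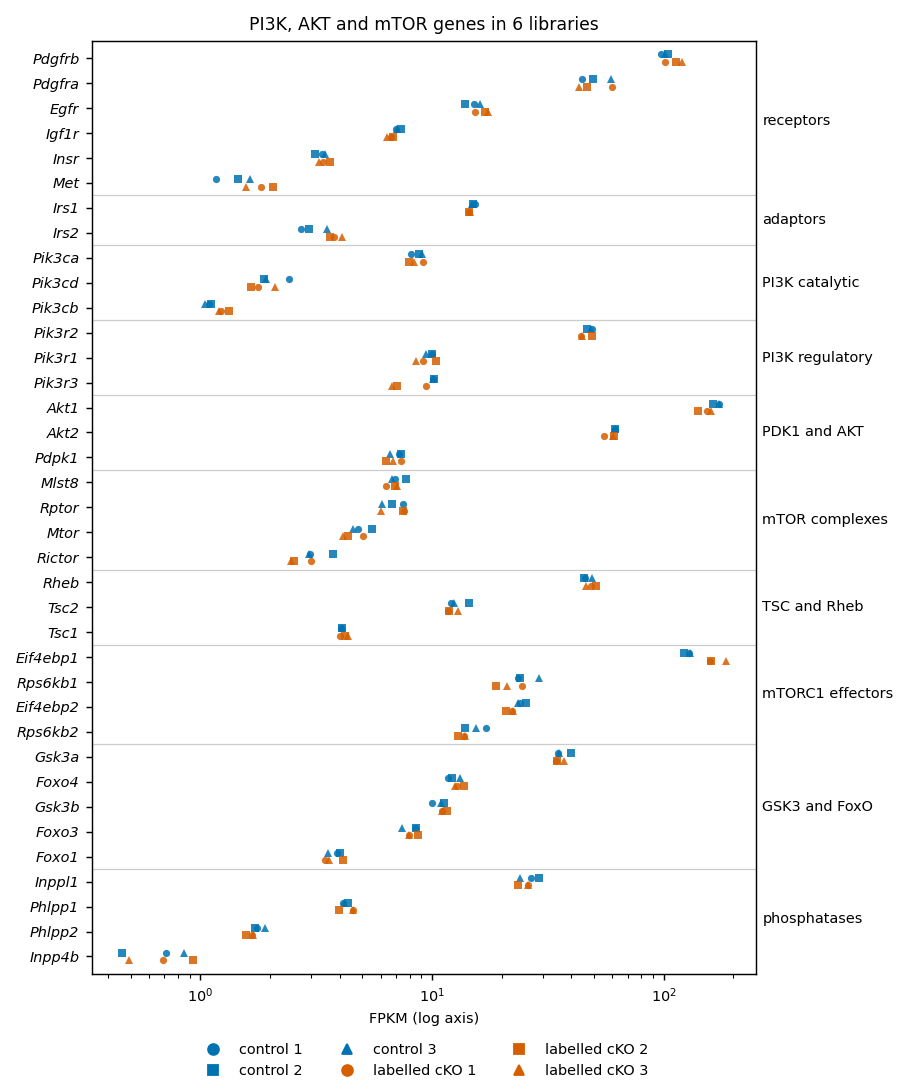
FPKM of the 37 genes (log axis) in each of the 3 control libraries (blue) and the 3 cKO-labelled libraries (orange), with the marker shape giving the replicate number. The genes are grouped by role and ordered by mean level within a role, the highest overall being *Akt1* at 161 FPKM and the lowest *Inpp4b* at 0.688 FPKM, and for most genes the spread within a gene is small beside the distance to its neighbours.

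Between the groups, 0 of the 36 tested genes passed an adjusted p of 0.05 when log2(FPKM + 1) was compared with limma, as did 0 of all 11590 tested rows (0%). At an unadjusted p under 0.05 there were 4 of the 36, a share of 11.1% beside 13.1% of all tested rows. Those 4 were *Eif4ebp1* and *Irs2*, both higher in the cKO-labelled libraries (5.37% of all tested rows were), and *Pik3r3* and *Eif4ebp2*, both lower (7.76%). The share was close to that of the whole table, so the count sets nothing apart in this pathway. Of the 36 genes, 14 had a log2 fold change above 0, beside 44.2% of all tested rows, and their median log2 fold change was -0.04, beside -0.02 for all rows. In 11 of the 36, a share of 30.6%, the control values and those of the cKO-labelled libraries did not overlap, 3 higher and 8 lower, beside 18.3% of all tested rows (6.51% higher and 11.8% lower). The 3 higher genes were *Eif4ebp1*, *Irs2* and *Pik3cb*. The 8 lower genes were *Akt1*, *Akt2*, *Pik3r3*, *Igf1r*, *Irs1*, *Rps6kb2*, *Eif4ebp2* and *Phlpp2*.

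The 95% interval of the difference lay inside a 1.5-fold change in either direction for 35 of the 36 genes, all but *Pik3r3*, and inside a 2-fold change for all 36. These intervals are not adjusted for the number of genes, and the added 1 FPKM shrinks the fold change of low genes. Without cKO-labelled replicate 1, 1 of the 36 genes passed an adjusted p of 0.05, *Pik3r3*, beside 324 of all tested rows (2.8%). In bulk RNA, fewer cells of a type and less RNA per cell cannot be told apart.

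**Figure D2:**
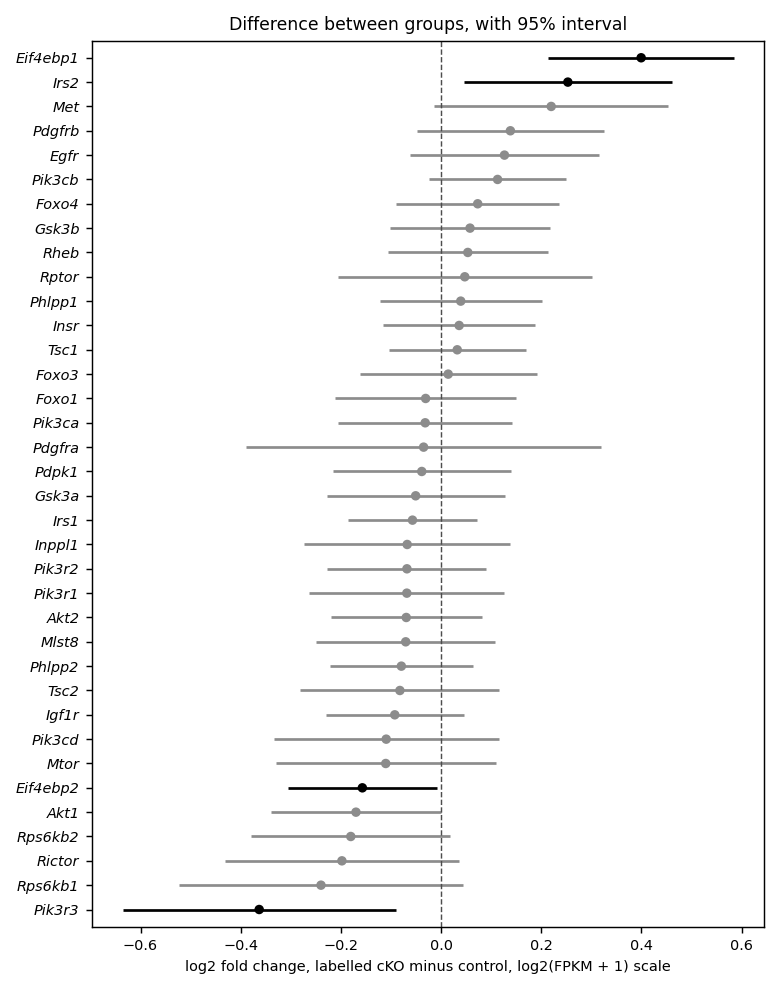
Difference between the cKO-labelled libraries and the control libraries for the 36 tested genes, as log2 fold change on the log2(FPKM + 1) scale (points) with the 95% interval from limma (lines, n = 3 per group). Black marks the 4 genes with an unadjusted p under 0.05, and *Eif4ebp1* at 0.40 and *Pik3r3* at -0.36 are the outermost.

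Markers of other cell types were read beside these genes. Of 6 epithelial markers, 3 were tested. *Krt8* and *Krt18* were higher in the cKO-labelled libraries at an unadjusted p under 0.05, while *Epcam*, at 0, 0.15 and 0.47 FPKM in control and 1.37, 1.58 and 1.21 FPKM in the cKO-labelled libraries, passed the filter only through the latter, which fixed its direction. The summed level of all 6 was 0.46 to 13.4 FPKM in control libraries and 18.2 to 42.7 FPKM in the cKO-labelled libraries, and *Krt5* was listed at 0 in 2 of the control libraries. Among 6 adipocyte markers, 4 were tested and 2 had an unadjusted p under 0.05, *Fabp4* and *Pparg*, both higher. The sums of all 6 were 34.9 to 50.9 FPKM in control and 76.1 to 120 FPKM in the cKO-labelled libraries. Most of that difference was *Fabp4*, with means of 18.7 and 62.8 FPKM. *Lpl* and *Cebpa* had log2 fold changes of 0.46 and 0.02, and *Adipoq* and *Plin1* reached at most 0.39 and 0.1 FPKM. The cartilage markers had 2 of 4 at that level, *Acan* and *Comp*, both higher. Osteoblast lineage markers had 6 of 11 at an unadjusted p under 0.05, 5 of them lower, with *Ibsp* at 123.86, 61.9 and 48.79 FPKM in control and 34.64, 26.17 and 27.65 FPKM in the cKO-labelled libraries. Macrophage markers had 0 of 6, muscle markers 0 of 5, and the single tested endothelial marker, *Cdh5*, had an unadjusted p of 0.447. Beside these counts, 13.1% of all tested rows had an unadjusted p under 0.05. None of these markers passed an adjusted p of 0.05 in limma. The part of these cells in the differences of the pathway genes was not tested.

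The mTOR complex 1 effectors held the largest difference. *Eif4ebp1* had an FPKM of 129.26, 122.43 and 129.76 in the control replicates and 159.31, 160.71 and 185.12 in the cKO-labelled libraries. Every cKO-labelled library was above every control. The means were 127 ± 4.10 and 168 ± 14.5 FPKM (SD, n = 3), a ratio of 1.32, and the log2 fold change was 0.40 (standard error 0.08, 95% interval 0.21 to 0.58). Its unadjusted p of 0.00144 ranked 39 among the 11590 tested rows, and its adjusted p was 0.312, so the difference did not pass limma's test. Without cKO-labelled replicate 1 the adjusted p was 0.0597, the lowest of the 16 alternatives tried, over which it reached 0.674. *Eif4ebp2*, the paralogue of *Eif4ebp1*, went the other way, with 24.04, 25.58 and 23.56 FPKM in control and 22.06, 20.97 and 22.27 FPKM in the cKO-labelled libraries. Again the groups did not overlap, and the log2 fold change was -0.16 (standard error 0.06, 95% interval -0.31 to -0.01, adjusted p = 0.366).

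Both S6 kinase genes had lower means in the cKO-labelled libraries without passing the test. *Rps6kb1*, which encodes S6 kinase 1, had 23.63, 23.98 and 29.05 FPKM in control and 24.53, 18.86 and 21.15 FPKM in the cKO-labelled libraries. The groups overlapped through cKO-labelled replicate 1, and the log2 fold change was -0.24 (95% interval -0.52 to 0.04, adjusted p = 0.431). *Rps6kb2* had 17.06, 13.93 and 15.53 FPKM in control against 13.81, 12.94 and 13.84 FPKM. Its lowest control lay just above the highest cKO-labelled library, and the log2 fold change was -0.18 (95% interval -0.38 to 0.02, adjusted p = 0.409).

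*Pik3r3* had the largest difference among the PI3K subunits. This gene encodes p55γ, a regulatory subunit that holds the catalytic subunit and docks it to phosphorylated receptors and adaptors. Its FPKM was 10.11, 10.23 and 10.09 in the control replicates and 9.41, 7.06 and 6.75 in the cKO-labelled libraries. The controls lay close together, and cKO-labelled replicate 1 was much nearer to them than the other two were. The log2 fold change was -0.36 (standard error 0.11, 95% interval -0.64 to -0.09, unadjusted p = 0.0163, adjusted p = 0.312). Without cKO-labelled replicate 1 it was -0.50 with an adjusted p of 0.0275 (up to 0.681 over the 16 alternatives), so the call rested on leaving out that library.

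The other regulatory subunits were closer between the groups. *Pik3r2*, which encodes p85β, was the most abundant, with 44.1 to 49.0 FPKM over the 6 libraries, and *Pik3r1*, which encodes p85α, had 8.49 to 10.4 FPKM, a range that overlapped that of *Pik3r3*. Their log2 fold changes were both -0.07, with intervals of -0.23 to 0.09 and -0.26 to 0.13. *Pik3r2* made up 69.6% to 74.4% of the summed FPKM of the 3 regulatory genes in every library. *Pik3r3* made up 14.9% ± 0.362 (SD, n = 3) of it in control and 12.3% ± 2.36 (SD, n = 3) in the cKO-labelled libraries.

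Among the catalytic subunits, *Pik3ca* (p110α) was the highest, with 7.96 to 9.10 FPKM, then *Pik3cd* (p110δ, best known from leukocytes) with 1.66 to 2.41 FPKM, then *Pik3cb* (p110β) with 1.05 to 1.33 FPKM. These ranges did not overlap. *Pik3ca* held 70.0% to 75.4% of the summed FPKM of the 3 genes, and its log2 fold change was -0.03 (95% interval -0.20 to 0.14). *Pik3cb* had 1.09, 1.11 and 1.05 FPKM in control and 1.23, 1.33 and 1.2 FPKM in the cKO-labelled libraries. All 3 of the latter were higher, at a log2 fold change of 0.11 (95% interval -0.02 to 0.25, adjusted p = 0.440). Summed over the 3 genes of each kind, regulatory transcripts were 5.11 to 6.07 times as abundant as catalytic ones.

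Both AKT isoforms measured here were among the more abundant genes. *Akt1* had 173.68, 162.68 and 173.90 FPKM in the control replicates and 153.32, 140.49 and 159.86 FPKM in the cKO-labelled libraries. All 3 cKO-labelled libraries were below all controls, at means of 170 ± 6.42 and 151 ± 9.85 FPKM (SD, n = 3). The log2 fold change was -0.17 (standard error 0.07, 95% interval -0.34 to 0.00024, unadjusted p = 0.0502, adjusted p = 0.380). *Akt2*, the isoform best known from insulin-stimulated glucose uptake, had 61.74, 61.76 and 61.73 FPKM in control and 55.19, 61.02 and 60.34 FPKM in the cKO-labelled libraries. Those values did not overlap either, although cKO replicates 2 and 3 were close to the controls, and the log2 fold change was -0.07 (95% interval -0.22 to 0.08). *Pdpk1*, which encodes PDK1, had 6.32 to 7.37 FPKM over the 6 libraries and a log2 fold change of -0.04 (95% interval -0.22 to 0.14).

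**Figure D3:**
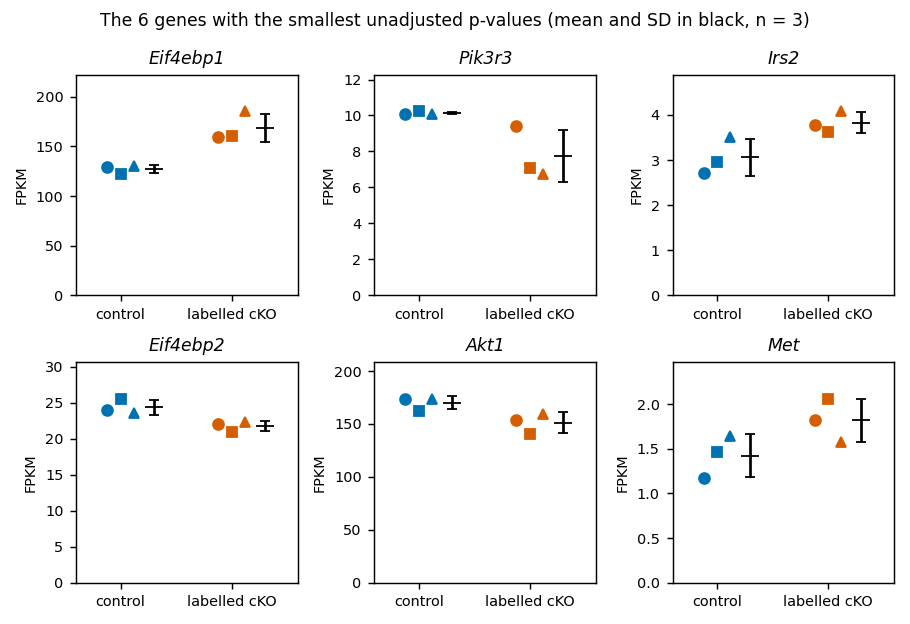
FPKM in each library (points, with shape giving the replicate number) and the mean with SD (black, n = 3) for the 6 genes with the smallest unadjusted p-values. The groups do not overlap for *Eif4ebp1*, *Pik3r3*, *Irs2*, *Eif4ebp2* and *Akt1* and overlap for *Met*, and no adjusted p was under 0.05.

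The insulin receptor substrates, adaptors that link the insulin and IGF1 receptors to PI3K, had differences of opposite sign. *Irs2* had 2.72, 2.95 and 3.51 FPKM in control and 3.78, 3.62 and 4.08 FPKM in the cKO-labelled libraries. The highest control was just below the lowest cKO-labelled library, and the log2 fold change was 0.25 (standard error 0.09, 95% interval 0.05 to 0.46, adjusted p = 0.322). *Irs1* had 15.41, 15.08 and 14.89 FPKM in control and 14.49, 14.42 and 14.59 FPKM in the cKO-labelled libraries. The groups did not overlap, but the difference was small, at a log2 fold change of -0.06 (95% interval -0.19 to 0.07, adjusted p = 0.660).

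The receptors ran from *Pdgfrb* at 97.0 to 120 FPKM, through *Pdgfra* at 43.3 to 60.1, *Egfr* at 13.9 to 17.4, *Igf1r* at 6.38 to 7.34 and *Insr* at 3.14 to 3.63, down to *Met*, the hepatocyte growth factor receptor, at 1.17 to 2.06 FPKM, with no overlap between neighbours. *Igf1r* had 6.98, 7.34 and 7.04 FPKM in control and 6.68, 6.79 and 6.38 FPKM in the cKO-labelled libraries. All 3 of the latter were lower, by a log2 fold change of -0.09 (95% interval -0.23 to 0.05, adjusted p = 0.516). *Met* had 1.17, 1.46 and 1.64 FPKM in control and 1.82, 2.06 and 1.58 FPKM in the cKO-labelled libraries, with an overlap through cKO replicate 3 (log2 fold change 0.22, 95% interval -0.01 to 0.45, adjusted p = 0.396). The epithelial keratin *Krt8* was also lowest of the cKO-labelled libraries in replicate 3, at 5.74 FPKM beside 18.1 and 15.61. So were *Krt18*, *Epcam* and *Cdh1*, while *Krt14* and *Krt5* were lowest in replicate 1, at 0.13 and 0.08 FPKM. In control replicate 3, *Krt8* was at 5.81 FPKM. The part of epithelial cells in the *Met* values was not tested. *Pdgfrb*, *Egfr* and *Insr* had log2 fold changes of 0.14, 0.13 and 0.04, each with an interval that included 0. *Pdgfra* had the widest interval of the 36 genes, with 44.57, 49.46 and 59.18 FPKM in control and 60.14, 46.54 and 43.28 FPKM in the cKO-labelled libraries. Its highest 2 values came from control replicate 3 and cKO-labelled replicate 1, and the interval of its log2 fold change ran from -0.39 to 0.32.

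The mTOR complex genes among the 37, *Mlst8*, *Rptor*, *Mtor* and *Rictor*, were low and overlapped between the groups. *Mlst8*, a subunit of both complexes, and *Rptor*, the defining subunit of complex 1, were at 6.30 to 7.76 and 6 to 7.55 FPKM, ranges that overlapped. *Mtor*, the kinase, was at 4.13 to 5.50 FPKM and *Rictor*, the defining subunit of complex 2, at 2.47 to 3.74 FPKM. *Rictor* had 2.96, 3.74 and 2.93 FPKM in control and 2.99, 2.53 and 2.47 FPKM in the cKO-labelled libraries, where cKO-labelled replicate 1 lay among the controls (log2 fold change -0.20, 95% interval -0.43 to 0.04, adjusted p = 0.431). *Mtor*, *Mlst8* and *Rptor* had log2 fold changes of -0.11, -0.07 and 0.05, each with an interval that included 0. Upstream of complex 1, *Rheb*, its activating GTPase, was at 45.3 to 50.9 FPKM, well above *Tsc2* at 11.8 to 14.5 and *Tsc1* at 3.99 to 4.34 FPKM, the subunits of the complex that inactivates it. The log2 fold changes of these 3 genes were 0.05, -0.08 and 0.03, and their adjusted p-values from limma were 0.747, 0.683 and 0.822.

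The AKT substrates were close between the groups. *Gsk3a* was at 34.4 to 39.9 FPKM and *Gsk3b* at 10.0 to 11.6 FPKM, with log2 fold changes of -0.05 (95% interval -0.23 to 0.13) and 0.06 (95% interval -0.10 to 0.22). Of the FoxO genes, whose proteins AKT keeps out of the nucleus, *Foxo4* was the highest at 11.8 to 13.8 FPKM, *Foxo3* was at 7.43 to 8.71 and *Foxo1*, the member best known from osteoblasts, at 3.46 to 4.11 FPKM. Their log2 fold changes were 0.07, 0.01 and -0.03, and the 95% intervals of all 3 lay between -0.21 and 0.24. *Foxo4* made up 48.9% to 54.5% of the summed FoxO FPKM in every library.

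The phosphatases that oppose the pathway were led by *Inppl1*, which encodes the lipid phosphatase SHIP2, at 23.6 to 29.0 FPKM, with a log2 fold change of -0.07 (95% interval -0.27 to 0.14). The AKT phosphatases *Phlpp1* and *Phlpp2* were at 3.97 to 4.55 and 1.57 to 1.91 FPKM. *Phlpp2* had 1.75, 1.72 and 1.91 FPKM in control and 1.67, 1.57 and 1.69 FPKM in the cKO-labelled libraries. The highest of the latter was just below the lowest control, and the log2 fold change was -0.08 (95% interval -0.22 to 0.06, adjusted p = 0.586).

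Ratios of 2 family members within a library compare levels per length and do not depend on the scaling of that library. Of 16 pairs, 6 had the smallest p that an exact two-sided permutation test over 3 and 3 libraries can give, 0.1, so none could pass a threshold of 0.05. The largest of these differences was in *Eif4ebp1* over *Eif4ebp2*, which was 5.38, 4.79 and 5.51 in control and 7.22, 7.66 and 8.31 in the cKO-labelled libraries, a difference in mean log2 ratio of 0.57. *Irs1* over *Irs2* was 5.67, 5.11 and 4.24 in control and 3.83, 3.98 and 3.58 in the cKO-labelled libraries, a difference of -0.39. *Pik3ca* over *Pik3cb* and *Igf1r* over *Insr* were also lower in all 3 cKO-labelled libraries, by -0.24 and -0.15 in mean log2 ratio, and *Phlpp1* over *Phlpp2* and *Tsc1* over *Tsc2* higher, by 0.17 and 0.13. With no difference between the groups, a share of 0.1 of pairs would reach a p of 0.1 in this test. Except for *Tsc1* over *Tsc2*, each of these 6 pairs held a gene whose own groups did not overlap, so the 6 are not a separate result. *Akt1* over *Akt2* was 2.30 to 2.82 in the 6 libraries and overlapped between the groups (difference -0.10, exact permutation p = 0.3). *Pik3r1* over *Pik3r2* was 0.191 to 0.216 in the 6 libraries, with a difference of -0.01 (exact permutation p = 0.9).

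**Figure D4:**
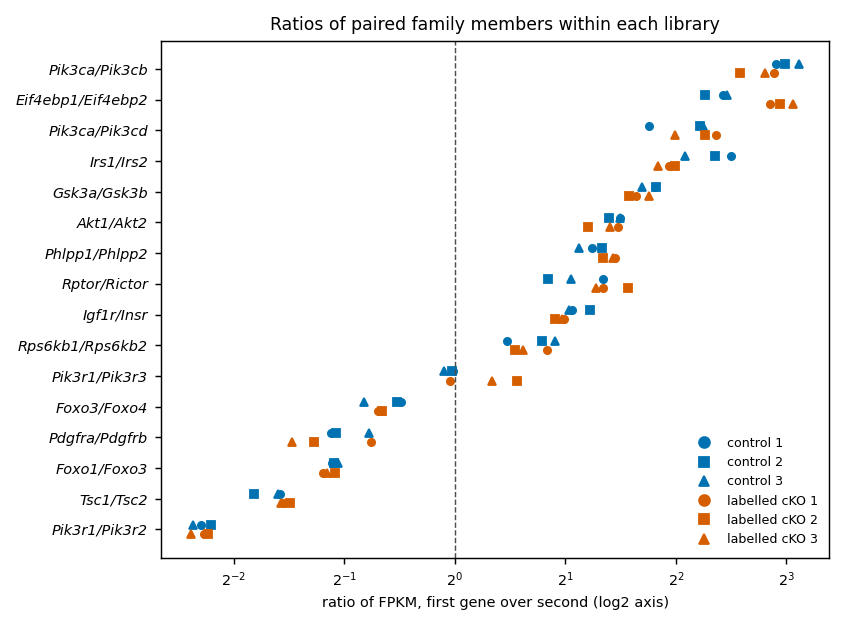
Ratio of FPKM of the first gene over the second (log2 axis) for 16 pairs, in each control library (blue) and each cKO-labelled library (orange), with shape giving the replicate number and the dashed line marking a ratio of 1. *Eif4ebp1* over *Eif4ebp2* is 4.79 to 5.51 in control and 7.22 to 8.31 in the cKO-labelled libraries, while *Akt1* over *Akt2* overlaps.

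The 5 genes with the smallest unadjusted p-values were placed on GRCm38 with GENCODE M21, which need not be the annotation behind the deposited values. *Eif4ebp1* lies at chr8:27260329-27276674 on the plus strand and *Irs2* at chr8:10984681-11008458 on the minus strand. *Pik3r3* lies at chr4:116221618-116303056 on the plus strand, *Eif4ebp2* at chr10:61428491-61452661 on the minus strand and *Akt1* at chr12:112653821-112674884 on the minus strand. The 250 bases before the start site were read from RefSeq for GRCm38.p6, which held 32 of the 37 genes, and are shown for *Pik3r3*, *Irs2*, *Eif4ebp2* and *Akt1*, since these are the promoters of the genes that stood nearest to a difference. *Insr*, *Pdgfrb*, *Rps6kb2*, *Eif4ebp1* and *Foxo4* had no entry. Where a gene had several windows, the one nearest its GENCODE start was taken. Capitals mark matches, on either strand, to GTAAACA (FoxO), TGATGNAA (ATF4), TGACGTCA (CREB), CACGTG (E-box) or GGCGGGAA (E2F). Matches do not overlap each other in the windows shown. The windows lie at chr4:116221358-116221607 (plus strand), chr8:11008930-11009179, chr10:61452670-61452919 and chr12:112674885-112675134 (minus strand), and each sequence is given on the strand of its gene.
*Pik3r3*: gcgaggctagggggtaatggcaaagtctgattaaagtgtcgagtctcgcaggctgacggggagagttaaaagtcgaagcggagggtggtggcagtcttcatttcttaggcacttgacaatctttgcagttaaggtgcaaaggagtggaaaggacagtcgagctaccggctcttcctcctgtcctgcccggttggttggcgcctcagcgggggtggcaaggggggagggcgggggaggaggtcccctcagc
*Irs2*: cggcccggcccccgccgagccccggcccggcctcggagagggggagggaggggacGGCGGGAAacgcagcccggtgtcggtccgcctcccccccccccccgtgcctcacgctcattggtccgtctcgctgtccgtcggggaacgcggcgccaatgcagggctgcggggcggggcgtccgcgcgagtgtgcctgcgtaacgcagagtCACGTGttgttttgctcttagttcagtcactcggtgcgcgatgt
*Eif4ebp2*: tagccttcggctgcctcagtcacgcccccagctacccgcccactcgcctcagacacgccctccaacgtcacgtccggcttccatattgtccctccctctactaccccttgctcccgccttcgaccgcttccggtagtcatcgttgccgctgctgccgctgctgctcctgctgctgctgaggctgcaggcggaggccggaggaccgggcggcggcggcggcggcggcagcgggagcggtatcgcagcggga
*Akt1*: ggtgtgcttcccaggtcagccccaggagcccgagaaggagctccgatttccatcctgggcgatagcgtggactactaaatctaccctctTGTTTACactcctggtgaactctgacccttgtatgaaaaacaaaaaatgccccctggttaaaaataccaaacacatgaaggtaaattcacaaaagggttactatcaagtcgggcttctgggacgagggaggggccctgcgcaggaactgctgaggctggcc

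Distances here are from the RefSeq start site, which lay 471 bases before the GENCODE start for *Irs2*, 10 for *Pik3r3*, 8 for *Eif4ebp2* and 0 for *Akt1*. For the first 3, the 50 bases after the RefSeq start were not found whole in a GENCODE transcript of the gene. The *Irs2* window held the E2F motif starting 195 bases and the E-box starting 44 bases before that site. The *Akt1* window held the FoxO motif starting 161 bases before it, and the *Pik3r3* and *Eif4ebp2* windows held none of the 5. Over the 32 genes, the E-box was in 4 (*Met*, *Irs1*, *Irs2* and *Rheb*), E2F in 2 (*Irs2* and *Rictor*), FoxO in 1 (*Akt1*), ATF4 in 1 (*Pik3cd*) and CREB in 0. Of all 32851 windows in the table, 6.02% held the E-box, 1.86% E2F, 3.17% FoxO, 3.45% ATF4 and 1.55% CREB. The windows of the 32 genes had a median GC content of 61.8%, against 52.4% over all windows.

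Other genes of the pathway, in lists of further inputs, regulators and outputs, were read in the same fit. Of 103 such genes, 93 were tested, and 0 passed an adjusted p of 0.05 in limma. At an unadjusted p under 0.05 there were 18, of which 11 were higher and 7 lower in the cKO-labelled libraries, a share of 19.4% beside 13.1% of all tested rows. Their median log2 fold change was -0.01. Without cKO-labelled replicate 1, 7 of the 93 passed an adjusted p of 0.05, beside 2.8% of all tested rows, namely *Trib3*, *Ddit4*, *Sesn2*, *Gadd45a* and *Bnip3*, all higher, and *Sesn3* and *Txnip*, both lower.

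Of the ligands, 1 of 8 tested had an unadjusted p under 0.05, a share of 12.5% beside 13.1% of all tested rows. It was *Hbegf*, a ligand of the EGF receptor, with 6.06, 7.14 and 5.54 FPKM in control and 7.09, 10.88 and 8.80 FPKM in the cKO-labelled libraries (adjusted p = 0.321). *Igf2* and *Pdgfa* came next, at log2 fold changes of 0.29 and 0.15. The study's AKT model concerns protein binding and phosphorylation. From RNA sequencing of these preosteoblasts, the study also reported differentially expressed genes, and named PI3K-Akt and focal adhesion among their pathways. The threshold behind those genes is not stated in its methods, and they were not compared with the fit used here. By western blot, the study reported lower phosphorylated focal adhesion kinase and AKT in preosteoblasts of the cKO genotype. Transcripts of the inputs that the study placed above AKT were nearly level here. *Fn1* (fibronectin), *Itgb1* (integrin β1) and *Ptk2* (focal adhesion kinase) had log2 fold changes of -0.0045, -0.05 and -0.02, with 95% intervals of -0.21 to 0.20, -0.21 to 0.12 and -0.18 to 0.14, and 0 of the 9 genes of that list had an unadjusted p under 0.05. Its smallest p-values were those of *Itgav*, *Pxn* and *Itga5*, at adjusted p of 0.448, 0.474 and 0.613. Of the further PI3K subunits and phosphatases, 1 of 10 tested (10%) had an unadjusted p under 0.05. It was *Ppp2r5b*, at a log2 fold change of -0.19 (adjusted p = 0.358), followed by *Inpp5k* and *Pik3ip1*, at 0.13 and 0.09.

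Regulators and substrates of AKT had 4 of 18 at an unadjusted p under 0.05, 3 of them higher. The share was 22.2%, beside 13.1% of all tested rows. *Trib3*, which encodes a pseudokinase described as binding AKT, had 7.71, 6.60 and 13.37 FPKM in control and 16.68, 51.38 and 50.95 FPKM in the cKO-labelled libraries. cKO-labelled replicate 1 was close to control replicate 3, and the log2 fold change was 1.89 (standard error 0.45, adjusted p = 0.312). *Trib1* and *Cdkn1b*, which encodes a cell cycle inhibitor, had log2 fold changes of 0.23 and 0.26. Of the amino acid and stress inputs to mTOR complex 1, 4 of 22 tested had an unadjusted p under 0.05, a share of 18.2%. *Sesn3*, a sestrin that restrains complex 1, had 30.70, 31.95 and 32.18 FPKM in control and 25.24, 23.28 and 22.55 FPKM in the cKO-labelled libraries (log2 fold change -0.40, standard error 0.07, adjusted p = 0.312). *Ddit4*, which encodes the complex 1 inhibitor REDD1, had 23.62, 27.07 and 24.72 FPKM in control and 28.42, 37.80 and 36.32 FPKM (log2 fold change 0.42, adjusted p = 0.312), and its relative *Ddit4l* had a log2 fold change of 0.46. Inhibitors of the same complex therefore lay on both sides.

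Components of mTOR complex 2 and of translation had 3 of 12 at an unadjusted p under 0.05, all lower. The share was 25%, beside 13.1% of all tested rows. *Eif4e*, the cap-binding protein that *Eif4ebp1* and *Eif4ebp2* products hold, had 55.91, 58.29 and 53.94 FPKM in control and 50.90, 47.42 and 43.21 FPKM in the cKO-labelled libraries, without overlap (log2 fold change -0.25, standard error 0.08, adjusted p = 0.312). *Eif4g1*, its scaffold, and *Pdcd4*, an inhibitor of the eIF4A helicase, had log2 fold changes of -0.22 and -0.38. FoxO target genes were a list of 22 that includes *Irs2*, *Insr* and *Rictor*. Of these, 9 had an unadjusted p under 0.05, a share of 40.9% beside 13.1% of all tested rows. Of the 9, 7 were higher and 2 lower, and the median log2 fold change of the list was 0.08. *Irs2*, *Trib1*, *Cdkn1b* and *Sesn3* are among the 9 and were already counted above, so this share partly repeats those counts. *Gadd45a*, a stress and DNA damage gene, had 29.69, 35.92 and 31.43 FPKM in control and 46.47, 63.41 and 61.07 FPKM in the cKO-labelled libraries (log2 fold change 0.79, standard error 0.13, adjusted p = 0.312). *Txnip*, an inhibitor of thioredoxin and glucose uptake, had 7.98, 7.90 and 8.18 FPKM in control and 5.74, 3.46 and 2.52 FPKM (log2 fold change -0.93, standard error 0.22, adjusted p = 0.312).

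Every library was nearer to the other group than to its own for some of the 36 genes. Its own group gave a mean of 2 libraries and the other group a mean of 3, so the 2 distances are not alike in noise. The same numbers over all tested rows were not computed, so those below set nothing apart in these genes. Over the 36 genes, control replicate 3 was nearer to the mean of the cKO-labelled libraries than to that of the other controls for 20, and cKO-labelled replicates 1 and 3 were nearer to the controls for 15 each. For control replicates 1 and 2 the number was 9 each, and for cKO-labelled replicate 2 it was 10. The median of the centred log2 values of the 36 genes was 0.02, 0.02 and 0.01 in the control libraries, and -0.01, -0.01 and -0.02 in the cKO-labelled libraries.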

How the data were processed

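RNA of 3 control libraries and 3 libraries labelled cKO was sequenced as paired-end reads after oligo (dT) enrichment. The authors mapped the reads with HISAT2 (GRCm38 in the submitters' processing notes) and deposited 1 FPKM value for each gene symbol in each library. The program that computed FPKM and the annotation release are not given in the sources used here, nor is how the stated DESeq normalization relates to these values. All 6 columns were used.

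FPKM values are not counts, so no count test was run, and depth and counting error are unknown. log2(FPKM + 1) was compared with limma 3.58.1 in R 4.3.3 (lmFit, eBayes, Benjamini-Hochberg adjustment) over the 11590 rows that reached 1 FPKM in 3 or more libraries. All p-values not called exact, and all 95% intervals, are from this fit. The fit was tested on simulated data. Family ratios used an exact permutation test. Start site windows were taken from RefSeq, and the motifs were chosen after the values were seen.

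The members and lists were chosen with earlier results of these data known. Named were all 37 genes, *Nell2*, *Fn1*, *Itgb1*, *Ptk2*, the 3 genes with the smallest unadjusted p of each other pathway list, and marker genes. *Sesn2*, *Bnip3*, *Ddx3y* and the genes called without 1 library were named in addition after their values were seen.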

Additional observations from a re-analysis of the deposited data

How the results depend on the processing

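Among the 36 genes, 0 passed an adjusted p of 0.05 under all but 1 of the 16 alternatives (pseudocount, filter, variance trend, scaling, Y-linked covariate, library weights, replicate block and each library left out). The exception was 1 gene without cKO-labelled replicate 1, *Pik3r3* (log2 fold change -0.50). With a library left out, the number called ran from 0 to 324 over all rows, with 2 without control replicate 3, from 0 to 1 among the 36 genes and from 0 to 7 among the other pathway genes. At an unadjusted p under 0.05 it ran from 852 to 2461 over all rows and from 2 to 6 among the 36, beside 1521 and 4 with all libraries. Library weights gave 8 of the 36 (22.2%), beside 2269 of all rows (19.6%). The cause of these changes was not tested.

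The log2 fold changes of *Eif4ebp1* (0.33 to 0.44), *Irs2* (0.19 to 0.33), *Pik3r3* (-0.50 to -0.28), *Eif4ebp2* (-0.18 to -0.12) and *Akt1* (-0.21 to -0.12) kept their sign throughout. Signs changed for 7 genes whose differences were near 0. *Pdgfra* was at 0.0049 under quantile normalization, *Foxo1* at 0.017 with the Y-linked covariate and *Rptor* at -0.014 with library weights. With a library left out, *Pdgfra* ran from -0.173 to 0.074, *Rptor* from -0.017 to 0.142, *Foxo1* from -0.090 to 0.0083, *Foxo3* from -0.042 to 0.047, *Gsk3a* from -0.086 to 0.0081, *Pik3ca* from -0.079 to 0.0079 and *Pdpk1* from -0.087 to 0.0093.

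The labels tie same-numbered libraries to no shared litter, batch or day. Across genes, same-numbered libraries had correlations, after removing group means, of 0.03, -0.17 and 0.21. These were not compared with the correlations of differently numbered libraries, so whether the numbers pair the libraries was not tested. With the replicate number as a block, 0 of the 36 genes were called and 3 (8.33%) had an unadjusted p under 0.05, beside 12.6% of all rows. Scaling libraries to the same FPKM sum or by quantiles moved the median log2 fold change of all rows from -0.02 to -0.03 and -0.01. Under quantile normalization, the group difference of each of the 16 ratios moved by less than the SD of its log2 ratio pooled over both groups. Depth is unknown, so how much of the low values of *Pik3cb*, *Met* and *Phlpp2* is counting error is unknown.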
